A study of Caenorhabditis elegans with 2 samples.

Results

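Histone-modifying enzyme genes were examined for binding of a GFP-tagged transcription factor in whole Caenorhabditis elegans. The members were protein-coding genes whose symbol is set-, jmjd- or hda- followed by a number, together with sir-2.1, sir-2.2, sir-2.3, sir-2.4, spr-5, lsd-1, utx-1, met-1, met-2, mes-2 and mes-4. The rule found 58 genes among 19973 protein-coding genes: 35 methyltransferase genes, 11 demethylase genes and 12 deacetylase genes, grouped by family name. The rule takes no histone acetyltransferase gene. For many set- genes, and for the hda- and sirtuin genes, no histone substrate is stated here, so the class is that of the gene family.

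The measurement was chromatin immunoprecipitation and sequencing (ChIP-seq) of L4 larvae of mixed sex, in 2 biological replicates of 1 group. Both libraries came from strain OP355, with the unc-119(tm4063) allele on chromosome III and the integrated transgene wgIs355, and there was no group with another genotype. The labels disagree on the tagged protein: mdl-1 stands in the antibody field and in the strain entry, whereas a free-text field gives eGFP-ZK337.2 (klu-1 in RefSeq). The mdl-1 start window held 2 summits, the stronger with a signal of 1353, which ranked 2 in the authors' list, with 696 in replicate 1 and 660 in replicate 2, and klu-1 and unc-119 had no IDR summit there. A tagged transgene that carries its own copy of the promoter can raise reads over that gene, and its part in the mdl-1 value was not tested.

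Histone-modifying enzymes add or remove methyl and acetyl groups on histone tails, and these marks are read by proteins that open or compact chromatin. Methylation of H3K4 and H3K36 goes with transcribed genes, H3K27 and H3K9 methylation with repressed ones, and histone deacetylation with repression. In worms many of these enzymes act in the germ line, in cell fate decisions and in lifespan. MDL-1 is a Mad-type basic helix-loop-helix protein, and mammalian Mad proteins recruit a Sin3 corepressor that carries histone deacetylases. The E-box bound by Myc, Max and Mad dimers is CACGTG.

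The values were the deposited peak lists on genome build ce11. The authors' list of peaks that passed an irreproducible discovery rate (IDR) comparison held 4293 peaks. A gene was called bound where the summit of an IDR peak fell within a window that reached 1000 bp upstream and 200 bp downstream of the gene's start. Many worm transcripts are trans-spliced, so an annotated start can lie downstream of the true site of initiation. Signal is the peak caller's value, and its scale was not given. IDR peaks spanned 45.6 to 1411, and values in a replicate's own list were on a lower scale. Sequencing depth is unknown, because the lists hold no read counts. With 1 group there was no comparison of conditions, and all shares below are descriptions without a test.

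The bound promoters differed in sequence. The E-box lay near the summit at 1 of the 13 bound members, against 16.4% of IDR peaks in coding gene start windows. The 121 bases centred on the summit are shown for 3 methyltransferase and 2 demethylase genes among those bound, as read from the RefSeq WBcel235 sequence on the strand of the gene, 5′ to 3′. Capitals mark any of 7 hexamers searched on both strands. They were the E-box CACGTG, the GA repeat read as GAGAGA or in the other register as AGAGAG, the alternating G and C runs GCGCGC or else CGCGCG, and the words ACGCAG or the related GAGACG. They were chosen with earlier results of these data known. Both registers of the GA repeat can overlap each other, as can both GC runs, and the end of GAGACG can overlap the start of ACGCAG. The set-4 stretch, at chrII:6331532-6331652 (minus strand), is shown for its GA repeats. The set-16 stretch, at chrIII:13643677-13643797 (plus strand), held 3 copies of ACGCAG. The mes-2 stretch, at chrII:14383780-14383900 (plus strand), held none of the hexamers this close to the summit. The jmjd-4 stretch, at chrIII:10334071-10334191 (minus strand), held GAGACG on its other strand. The utx-1 stretch, at chrX:8556733-8556853 (plus strand), held no hexamer. Of 12 such stretches read, 5 held a hexamer, and those of both bound deacetylase genes, which overlap an exon, are not shown. The stretch at met-1, which has CACGTG centred 8 bp from its summit, was not among the 12.
set-4: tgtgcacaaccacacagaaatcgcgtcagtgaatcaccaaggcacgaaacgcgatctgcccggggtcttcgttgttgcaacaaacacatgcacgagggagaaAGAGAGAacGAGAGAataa
set-16: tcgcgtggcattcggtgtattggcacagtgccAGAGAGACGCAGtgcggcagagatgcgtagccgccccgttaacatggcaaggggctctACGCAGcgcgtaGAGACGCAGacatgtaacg
mes-2: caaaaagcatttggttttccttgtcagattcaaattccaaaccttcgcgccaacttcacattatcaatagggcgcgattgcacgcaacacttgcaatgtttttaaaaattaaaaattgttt
jmjd-4: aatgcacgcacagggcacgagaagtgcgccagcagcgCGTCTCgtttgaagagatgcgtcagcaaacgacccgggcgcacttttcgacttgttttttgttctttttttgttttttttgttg
utx-1: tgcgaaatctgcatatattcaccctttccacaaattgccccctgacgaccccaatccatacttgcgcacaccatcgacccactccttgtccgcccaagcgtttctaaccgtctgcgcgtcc

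None of these 5 stretches held CACGTG. Within 100 bp of the summit, 1 of the 13 bound members carried it, met-1, whose stretch is not shown, against 303 of the 1844 IDR peaks in start windows of coding genes (16.4%) and 3.98% of windows of equal length, 201 bp, lying 50 to 250 bp upstream of all coding genes. GAGAGA was present in 4 of the 13, in 40.3% of start-window peaks and 15.7% of the upstream windows. GAGACG was found in 5 of the 13 (28.6% and 7.6%) and ACGCAG in 4 (24.5% and 6.08%). GCGCGC was found in 1, set-21 (9.54% and 2.81%), which also held CGCGCG (6.34% and 2.36%). AGAGAG was found in 3 (34.3% and 12.8%). Any of the 7 lay near 9 of the 13 member summits, against 73.7% of start-window peaks.

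IDR summits were called at 13 of the 58 genes (22.4%), where 10.9% of all protein-coding genes had one. The 13 were met-1, set-4, set-16, set-26, set-20, set-21 and mes-2 among methyltransferases (7 of 35), jmjd-1.2, jmjd-3.1, jmjd-4 and utx-1 among demethylases (4 of 11) and hda-6 and sir-2.2 among deacetylases (2 of 12). Each had exactly 1 IDR summit in its window and a summit in both replicates' own lists. Chromosome X held 4 of the 13, out of 15 members there (26.7%, against 15.2% of all coding genes on X), and the autosomes 9 of 43 (20.9%, against 10.3%).

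The share differed between peak lists. Among the strongest 4293 peaks of replicate 1, 12 of the 58 genes had a summit (20.7%, against 10.6% of all coding genes), and among those of replicate 2, 11 had one (19.0%, against 10.7%). In the pooled list of 27577 peaks and background, 26 of the 58 had one (44.8%), close to the 38.9% of all coding genes. Replicate 1's whole list reached 25 genes (43.1%, against 40.6%) and replicate 2's reached 26 (44.8%, against 39.7%). The larger share in the members was thus seen in the lists of strong peaks and was small in the lists that include background.

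**Figure D1:**
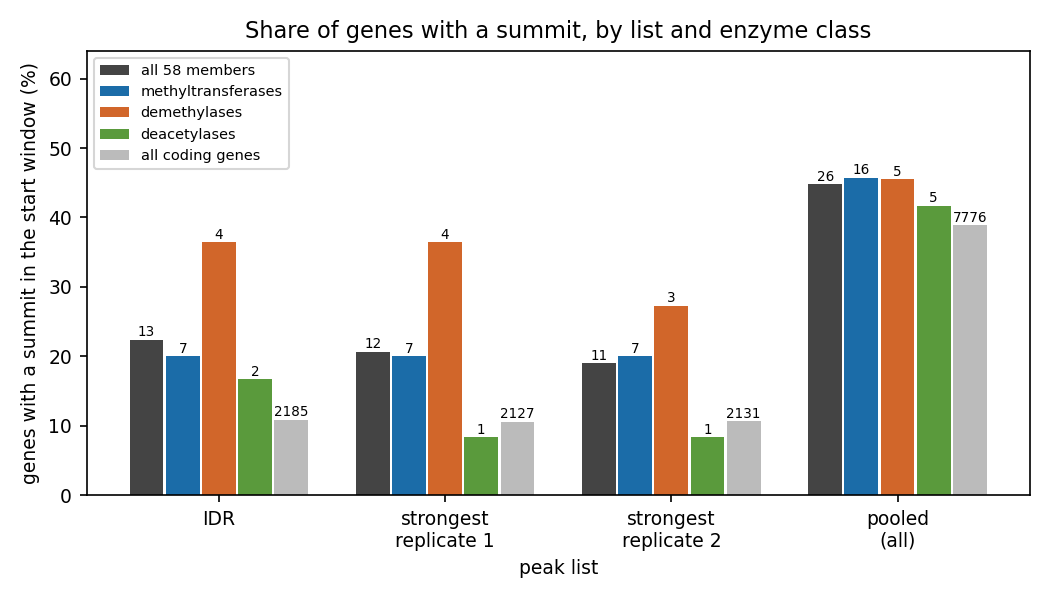
Share of genes with a summit in the start window, in percent, for the members, for each enzyme class and for all coding genes, in 4 peak lists; the number above each bar is the count of genes. All 58 members together reached 22.4% in the IDR list against 10.9% of coding genes, and 44.8% against 38.9% in the pooled list.

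Signals at the bound members varied widely, led by met-1. The lowest was 53.7, the median 100.2 and the highest 556, where the 2185 bound coding genes had a median of 76.9 and a highest value of 1353. Of the 13, 7 lay above that median and 6 below it. The −log10 q values in the authors' list ran from 3.33 to 3.80 at the members, and 3.80 is the highest value the list holds.

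**Figure D2:**
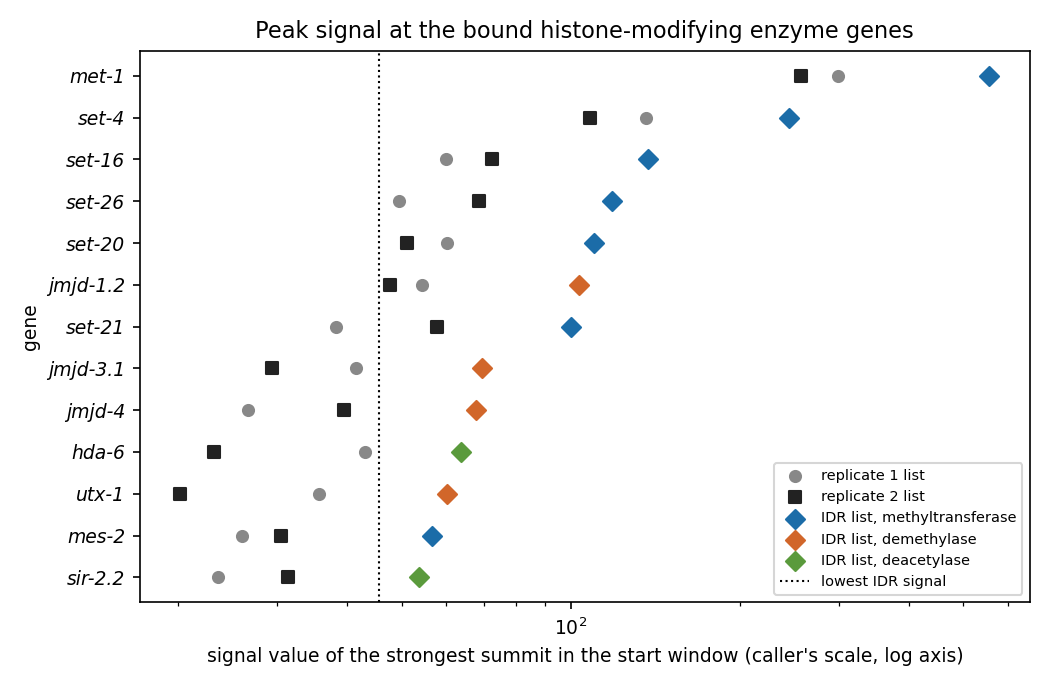
Signal value (log axis) of the strongest summit in the start window of each bound gene: diamonds for the IDR list, coloured by enzyme class, circles for replicate 1 and squares for replicate 2, with the lowest IDR signal, 45.6, as a dotted line. Signals run from 53.7 at sir-2.2 to 556 at met-1, and met-1 and set-4 stand above the other genes in all 3 lists.

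The strongest peak lay at met-1 (WBGene00016603, I:4254197-4264699, plus strand), whose product places methyl groups on H3K36. Its IDR peak (I:4253891-4254274) had a signal of 556 (299 and 257 in replicates 1 and 2). It ranked 28 among all IDR peaks and 15 among the 2185 bound genes. The summit lay 136 bp upstream of the start, in an intron of the upstream gene C43E11.12, which ends 57 bp before met-1 on the same strand. It is the lone member with CACGTG within 100 bp of its summit, centred 8 bp away. The other genes listed for this mark, mes-4 and set-18, were not bound, where 10.9% of all coding genes were. mes-4, the germline H3K36 methyltransferase gene, had no summit in any list. set-18 had only a pooled signal of 16.3 (16.2 and 8.24 in replicates 1 and 2). An IDR peak with a signal of 98.0 (43.1 and 54.7 in replicates 1 and 2) lay in a set-18 intron 2418 bp downstream of its start.

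The next strongest peak lay at set-4 (WBGene00016313, II:6329838-6331341, minus strand), which acts on H4K20. The peak at II:6331523-6331696 had a signal of 244 (136 and 108 in replicates 1 and 2), and its summit was 251 bp upstream. It ranked 237 in the IDR list, and its GA repeats are printed above. The other H4K20 methyltransferase gene, set-1, which makes the monomethyl mark, had no IDR summit in its window. Its strongest pooled signal there was 32.7 (13.2 and 16.1 in replicates 1 and 2). An IDR peak with a signal of 97.0 lay further out, 1502 bp upstream of set-1, in the window of its divergent neighbour jhdm-1.

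Of the genes listed for H3K4 methylation, set-16 was bound and set-2, set-17 and set-30 were not, where 10.9% of all coding genes were bound. set-16 (WBGene00011729, III:13643916-13656637, plus strand) encodes the worm MLL-type enzyme, and its peak at III:13643539-13643934 had a signal of 137 (59.9 and 72.3 in replicates 1 and 2). The summit was 179 bp upstream of set-16 and 167 bp upstream of the divergent gene drr-2, which encodes a translation factor related to eIF4H. set-2, the worm SET1 enzyme, had no summit in any list, and set-17 had only a signal of 8.71 in replicate 1. set-30 had none in its window, and an IDR peak of 62.1 lay 1357 bp upstream of it, in the window of ZC8.6.

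mes-2 (WBGene00003220, II:14383973-14388454, plus strand) encodes the H3K27 methyltransferase of the worm Polycomb complex. Its peak at II:14383642-14384037 had a signal of 56.6 (26.02 and 30.5 in replicates 1 and 2), and a summit 133 bp upstream. This was the lowest signal among the bound methyltransferase genes, with a −log10 q of 3.33. None of the 3 genes listed for H3K9 methylation was bound, where 10.9% of all coding genes were. met-2 had a pooled signal of 19.3 with 11.8 in replicate 1 and no summit in replicate 2. set-25 had a pooled signal of 21.4 (15.3 and 7.11 in replicates 1 and 2), and set-32 had no summit in any list.

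The remaining bound methyltransferase-family genes were set-26, set-20 and set-21. set-26 (WBGene00013106, IV:16646791-16655883, minus strand) encodes a SET and PHD finger protein linked to lifespan. Its peak at IV:16656268-16656663 had a signal of 118.6 (49.4 and 68.6 in replicates 1 and 2). The summit was 583 bp upstream of set-26 but 147 bp upstream of the divergent gene tsr-2, so that the nearer start was that of tsr-2. Its close paralog set-9 had no summit in any list, and 21.01% of the 36-base words in the set-26 window and 22.0% in the set-9 window occur more than once in the genome.

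set-20 (WBGene00020920, X:5680330-5686158, minus strand) had a signal of 110.0 at X:5686051-5686446 (60.1 and 51.1 in replicates 1 and 2) and a summit 91 bp upstream. Its downstream neighbour set-19 had no pooled summit and a signal of 6.98 in replicate 1 alone. set-21 (WBGene00021282, IV:4390844-4393406, plus strand) had a signal of 100.2 at IV:4390486-4390881 (38.2 and 57.8 in replicates 1 and 2). Its summit, 160 bp upstream, was nearer to rpl-7A, a large-subunit ribosomal protein gene on the other strand, at 94 bp. In the set-21 window 31.6% of the 36-base words occur more than once in the genome.

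Of the 11 demethylase genes, 9 are of the JmjC type, and 4 of these were bound, while neither of the other 2, spr-5 and lsd-1, was. Over all coding genes the bound share was 10.9%. Of the 11, only jmjd-1.2 had a signal at or above the IDR median, as had 5.62% of all coding genes. Of the 5 genes listed for H3K27 demethylation, jmjd-1.2, jmjd-3.1 and utx-1 were bound and jmjd-3.2 and jmjd-3.3 were not. jmjd-1.2 (WBGene00017920, IV:4660991-4665212, plus strand) encodes the worm PHF8 homolog, which with JMJD-3.1 is known for a role in the mitochondrial stress response. Its peak at IV:4660378-4660773 had a signal of 103 (54.5 and 47.6 in replicates 1 and 2). The summit was 415 bp upstream, and 375 bp upstream of the divergent gene F29B9.11.

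jmjd-3.1 (WBGene00017571, X:8571047-8575451, plus strand) had a signal of 69.7 at X:8570072-8570467 (41.5 and 29.4 in replicates 1 and 2). Its summit was 777 bp upstream, the farthest from the start among the 13. utx-1 (WBGene00017046, X:8557146-8563238, plus strand), the worm UTX gene, is its upstream neighbour and ends 7808 bp before it. The utx-1 peak at X:8556595-8556990 had a signal of 60.3 (35.7 and 20.2 in replicates 1 and 2), and a summit 353 bp upstream. The utx-1 and jmjd-3.1 summits were 13477 bp apart, so the pair of genes did not share a peak. jmjd-3.3 had only a signal of 8.83 in replicate 2, and jmjd-3.2 had no summit in any list.

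jmjd-4 (WBGene00011563, III:10332526-10334018, minus strand) had a signal of 67.9 at III:10333933-10334328 (26.7 and 39.6 in replicates 1 and 2). The summit was 113 bp upstream of jmjd-4 and 146 bp upstream of mev-1, which encodes a succinate dehydrogenase subunit. Of the H3K4 demethylase genes of the LSD1 type, spr-5 had no summit in any list, and lsd-1 had a pooled signal of 15.1, overlapped by a replicate 2 peak of 11.3, while the replicate 1 summit in its window, of 7.32, lay elsewhere. jmjd-2, an H3K9 and H3K36 demethylase gene, had no summit in its window, but an IDR peak with a signal of 121 (73.4 and 53.1 in replicates 1 and 2) lay 1065 bp upstream, just beyond the window and in no coding gene's window.

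Both bound deacetylase genes had signals in the lower part of the range. hda-6 (WBGene00018319, IV:5356543-5364306, minus strand), a class II gene of the HDAC6 type, had a signal of 63.7 at IV:5364103-5364498 (43.1 and 23.2 in replicates 1 and 2). Its summit lay 5 bp downstream of the annotated start, in a non-coding part of the exon, and 258 bp upstream of F41H10.4. sir-2.2 (WBGene00004801, X:13328067-13331263, plus strand), a mitochondrial sirtuin gene of the SIRT4 type, had the lowest signal of the 13, 53.7 at X:13328023-13328418 (23.5 and 31.4 in replicates 1 and 2). Its summit lay 154 bp downstream of the start. A stronger IDR peak with CACGTG near its summit, with a signal of 179 (89.5 and 89.6 in replicates 1 and 2), lay in a sir-2.2 intron 981 bp downstream of the gene start and 208 bp from the nearest start of another annotated sir-2.2 transcript. CACGTG lay near the summits of 18.4% of all IDR peaks. The neighbouring paralog sir-2.3 had no summit in any list.

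None of the class I genes hda-1, hda-2 and hda-3 was bound, where 10.9% of all coding genes were. hda-1, the worm HDAC1 and a subunit of the NuRD corepressor, came closest to the list. Its pooled peak at V:14524235-14524630 had a signal of 41.9 and a −log10 q of 3.02, below the lowest IDR signal of 45.6. The summit was 956 bp upstream of hda-1 and 304 bp upstream of the divergent gene ril-1. Replicate 2 had 22.1 there, and in replicate 1 the overlapping peak, with 19.6, had its summit at -1008 bp from the start and so outside the window. hda-3 had a pooled signal of 13.2 and no summit in either replicate's list, and hda-2 had no summit in any list. Of the sirtuins, sir-2.1, the worm SIRT1, had a signal of 18.2 in replicate 1 and none in the pooled list or replicate 2, and sir-2.4 had none. hda-11, the class IV gene, had 18.1 in replicate 2 alone. hda-4, the class IIa gene, had a pooled signal of only 10.9 at its start, but 3 IDR peaks lay in its introns, with signals of 70.7, 61.4 and 60.9 at 2870, 5648 and 8138 bp downstream. The latter 2 had CACGTG near the summit, and the first did not.

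**Figure D3:**
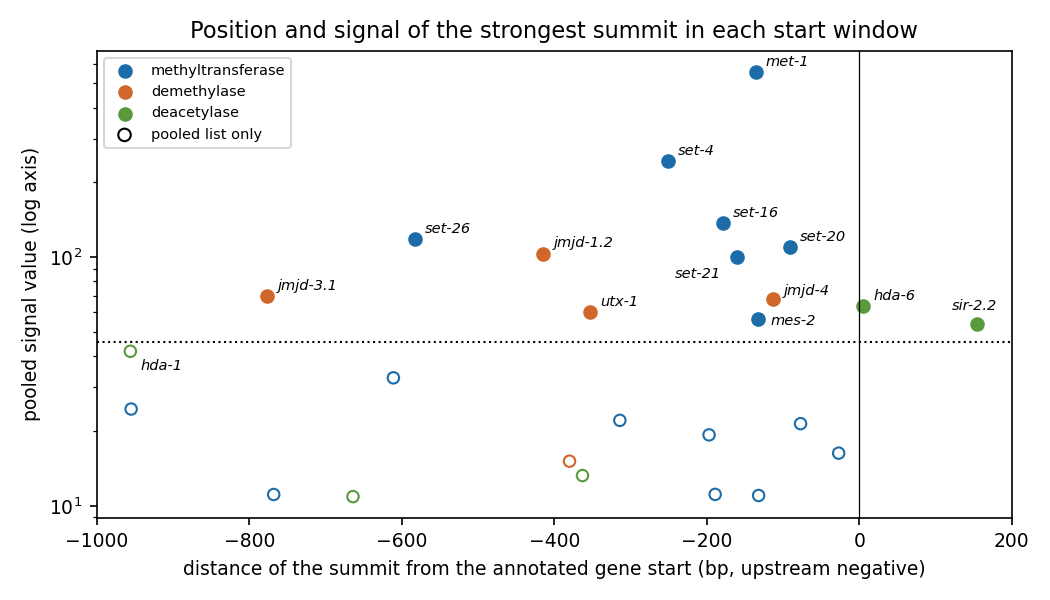
Distance of the strongest summit from the annotated start (bp, upstream negative) against pooled signal value (log axis) for each gene with a summit in its window; filled points have an IDR summit, open points only a pooled one, and the dotted line is the lowest IDR signal, 45.6. Of the 13 filled points, 8 lie within 200 bp of the start, a count not made over all bound coding genes. hda-1 is the highest open point, at 41.9.

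Summits at the members lay near the start. The median distance was 160 bp, against 252 bp over all bound coding genes. Of the 13, 8 lay within 200 bp, a count not made over all bound coding genes. Upstream summits made up 11 of the 13, where they made up 93.8% of all bound genes, and the window itself reaches further upstream. A peak was shared with the window of another coding gene at 6 of the 13 (46.2%), against 37.0% of all bound genes. At 4 of these 6, set-16, set-26, set-21 and jmjd-1.2, the other gene's start was the nearer, and at jmjd-4 and hda-6 the member's start was. With each summit given only to the nearest start, 9 of the 58 members were bound (15.5%, against 8.83% of all coding genes).

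All 6 members with a shared peak had a close divergent neighbour, which the window partly sets, because it reaches mainly upstream of each start. The summit lay between the paired starts at each except hda-6, where it was inside the gene. Of the 10 members whose nearest upstream coding gene was divergent and at most 1000 bp away, 6 were bound, against 18.6% of the 3502 coding genes in that arrangement. Of the 19 members with an upstream gene on the same strand within 500 bp, as in operons, met-1, set-4 and sir-2.2 were bound (15.8%, against 6.12% of 3612 genes). In the other 29, 4 were bound (13.8%, against 10.2%). A peak between divergent genes cannot be assigned to either gene from its position.

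The replicates placed the bound members in similar order at the top and not at the bottom. met-1 and set-4 ranked 25 and 214 in replicate 1's list and 29 and 290 in replicate 2's. Over the 13 peaks, the log2 of replicate 1 over replicate 2 had a median of 0.19 (SD 0.51), against 0.09 (SD 0.54) over the 1830 start-window IDR peaks with a value in both. It was positive for 7 of the 13, and for 58.2% of the 1830. The extremes were hda-6, at 0.89, and utx-1, at 0.82, both higher in replicate 1, and set-21, at -0.60, and jmjd-4, at -0.57, both higher in replicate 2. All 4 lay within 2 SDs of the median of start-window peaks. Without replicate 1, hda-6 and utx-1 were not among the strongest 4293 peaks of the other replicate, and without replicate 2, sir-2.2 was not.

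**Figure D4:**
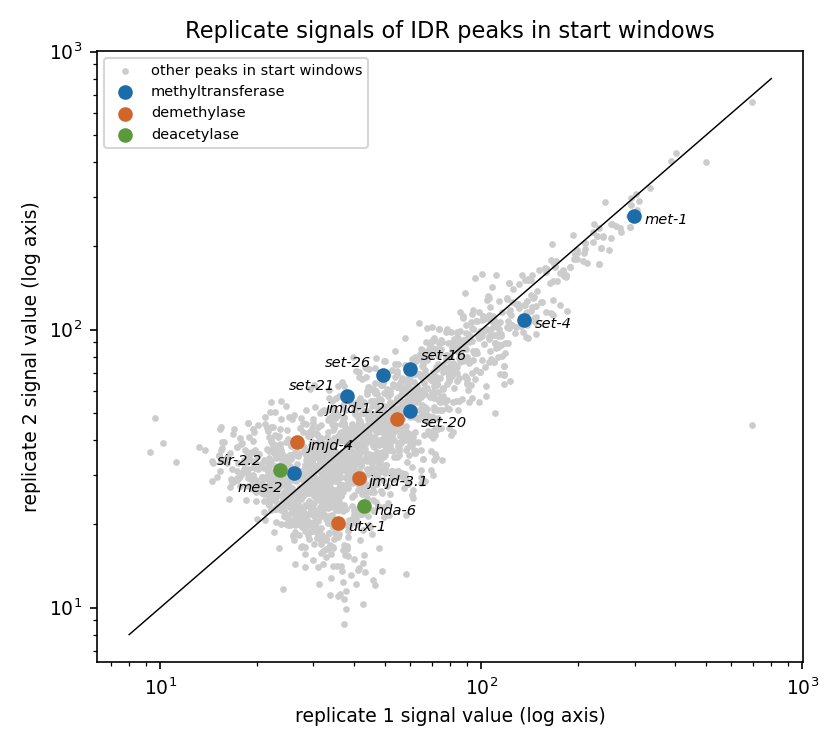
Signal in replicate 1 against replicate 2 (both log axes) for IDR peaks in start windows of coding genes, grey, with the 13 peaks at members coloured by enzyme class and the line of equal signal. met-1 lies among the strongest peaks in both replicates, and the log2 ratios of the members run from -0.60 at set-21 to 0.89 at hda-6.

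Below the IDR list, 13 further members had a pooled summit only. Those with the highest signals were hda-1, set-1, set-3 (24.5), set-10 (22.1), set-25, met-2, set-18, lsd-1, hda-3 and set-29 (11.1). The other 3, set-12, set-22 and hda-4, had signals of 10.9 to 11.1. In 6 of these 13 both replicates' lists also had a summit in the window. A further 8 members had a summit in a lone replicate's list, 3 in replicate 1 (set-17, sir-2.1 and set-19) and 5 in replicate 2 (hda-5, set-15, hda-11, set-6 and jmjd-3.3). The shares of all coding genes with a pooled but no IDR summit, or with a lone replicate's summit, were not counted. A pooled summit of any rank stood at 26 of the 58 members (44.8%), against 38.9% of all coding genes.

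No summit stood in any list at the remaining 24 members (41.4%, against 46.9% of all coding genes). They were sir-2.3, sir-2.4, set-2, set-5, set-8, set-9, set-11, set-13, set-14, set-23, set-24, set-27, set-28, set-30, set-31, set-32, mes-4, spr-5, jmjd-1.1, jmjd-2, jmjd-3.2, jmjd-5, hda-2 and hda-10. Their nearest IDR summits were 1065 to 108604 bp from the start, with a median of 8832 bp, the farthest at set-28. Repeated sequence limits alignment, and in 44 of the 58 windows every 36-base word occurs once in the genome. It was highest in the set-25 window, where 73.1% of words recur. The read length was not stated, and the part of repeats in missing peaks was not tested.

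Genes of the same pathways that are not members also had peaks, from strong ones to some near the lowest IDR signal. Of 61 such genes, named for the COMPASS, PRC2, NuRD, SIN3 and CoREST complexes, acetyltransferases, mark readers, arginine and H3K79 methyltransferases, and other JmjC and ubiquitin enzymes, 15 had an IDR summit (24.6%, against the 10.9% of all coding genes). The strongest lay at cbp-1, the CBP/p300 acetyltransferase gene (611 (304 and 307 in replicates 1 and 2)), and at bet-2, a bromodomain gene (403, with 233 and 173), and both had CACGTG near the summit. Of the 15 bound genes of this list, only cbp-1 and bet-2 had it at their strongest summit, against 16.4% of start-window IDR peaks. rbr-2, the KDM5 H3K4 demethylase gene, had 194, lin-53, a histone chaperone gene, 154, and hat-1, an acetyltransferase gene, 146. They were followed by mep-1 (112), jhdm-1 (97.0), mrg-1 (73.2), rfp-1 (58.9), arid-1 (58.3), lin-40 (54.3) and spat-3 (49.5). The Polycomb gene mes-6, the partner of mes-2, was also bound, with 47.1, just above the lowest IDR signal, and mes-3 was not. sin-3 had no IDR summit and a signal of 22.9 in replicate 1 alone. The other bound genes were wdr-5.3 (48.0, with 16.7 and 31.5 in replicates 1 and 2) and rcor-1 (46.6, with 23.8 and 22.5). Signals at the bound genes of this list from mrg-1 down lay below 76.9, the median of all bound coding genes. mes-6, mes-3, sin-3, wdr-5.3 and rcor-1 were named after their values were seen.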

How the data were processed

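ChIP-seq of 2 biological replicates was read from 4 deposited ce11 peak lists: replicate 1, replicate 2, pooled and IDR. Per the deposited file descriptions, the authors called each list from ce11 alignments against a control, with the IDR list made from the other 3. Each of the 4293 IDR lines stood in the pooled list, and 4293 pooled peaks reached the lowest IDR signal. The deposited signal of each peak is the caller's own value, and the deposited −log10 q value is the caller's significance. The sources used here do not name the aligner, the caller, their versions or the IDR threshold. Lists on ce10 were not used.

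Gene starts came from Ensembl release 115 and symbols from RefSeq and Ensembl, on WBcel235, which is ce11. Coordinates are 1-based. A gene's value is its strongest summit in the window. Replicate values for log2 ratios came from the strongest replicate peak overlapping the IDR peak by at least 1 bp. Of 65 partner names, 61 matched a gene. Every bound member, the 10 strongest members with only a pooled summit and up to 12 bound partner genes were named by rule, with the genes the labels name. Other members are named to account for all of them, and peaks outside the windows were named after their values were seen. Members and lists were chosen with earlier results of these data known. The summit assignment was tested on simulated data. No test across genes was run. Alternatives covered window, start, peak position, assignment, signal, list, motif window and replicates. Python 3.11.15, numpy 2.4.6, pandas 2.3.3 and matplotlib 3.10.9 were used.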

Additional observations from a re-analysis of the deposited data

How the results depend on the processing

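The count of bound members stayed within 1.5 times of 13 with either replicate left out, as given below. It also did so under 6 other alternatives, each given here with the share of all coding genes bound under it. It was 11 with a window of 500 bp upstream (8.54%), 18 with 2000 bp upstream (14.7%), 13 with any annotated transcript start (12.1%), 13 with the peak midpoint (10.9%), 14 with any 1 bp overlap (12%) and 9 with the nearest start only (8.83%). With signals at or above the IDR median it was 7 of 58 (12.1%, against 5.62% of all coding genes), with 6 methyltransferase, 1 demethylase and 0 deacetylase genes and 7 partner genes. In the pooled list it was 26 of 58 (44.8%), against 38.9% of all coding genes, with 16 methyltransferase and 5 deacetylase genes. Of the 61 partner genes, 40 had a pooled summit (65.6%), a share further above the 38.9%. With the nearest start only, 4 methyltransferase genes were bound, and with 500 bp upstream 9 partner genes. Leaving out a replicate gave 11 to 12 bound members, 7 methyltransferase, 3 to 4 demethylase, 1 deacetylase and 12 to 13 partner genes. The range of the background was 10.6 to 10.7%. The median signal of the bound members, 100.2 in the IDR list, was 43.1 to 47.6 in the replicates' own lists, which are on a lower scale. CACGTG lay near 1 bound member either way, and within 200 bp of the summit at 2, the second being jmjd-3.1, 114 bp away.

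met-1, set-4 and set-20 were bound under all 10 alternatives, and mes-2, jmjd-4, set-16, set-21 and jmjd-1.2 under all but 1. With the 2000 bp window set-1, set-5, set-30, lsd-1 and jmjd-2 were added. The class counts are small, so 1 gene moves the deacetylase count by a factor over 1.5. No paired analysis was possible because the series has 1 group. Depth is unknown, so a missing peak does not show that the factor is absent.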
